A study of Homo sapiens with 6 samples.

Results

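The 5 genes described here encode the TAM family of receptor tyrosine kinases, AXL, TYRO3 and MERTK, and their ligands GAS6 and protein S (PROS1). They were taken by symbol from the 26485 genes of the authors' deposited table, where all 5 were present with reads and an adjusted p-value. The table compares resistant PC9 cells, kept in 100 nM dacomitinib, with untreated parental PC9 cells, 3 libraries each. PC9 is a human non-small cell lung cancer line whose growth depends on a mutant, active EGFR, and dacomitinib binds covalently to the kinases of the EGFR family and blocks them. Resistant cells were derived from the same line by raising the dose from 1 pM to 100 nM over 6 months, and no group of resistant cells without drug was analysed here, so resistance and the presence of drug cannot be told apart. Nothing in the labels says that the numbered replicates are separate cultures or separate resistant lines, so p-values reflect only the spread between these libraries, which may be technical.

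TAM receptors carry immunoglobulin-like and fibronectin type III domains outside the cell and a tyrosine kinase inside it. GAS6 and protein S bind phosphatidylserine on dying cells through a Gla domain, which depends on vitamin K, and the receptors through their other end, so they act as bridges. GAS6 binds all receptors of the family and has its highest affinity for AXL, while protein S acts on TYRO3 and MERTK. In macrophages the pathway is known for the uptake of apoptotic cells, and in lung cancer AXL is known as a receptor through which tumour cells can bypass inhibited EGFR.

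The 2 members that passed the test, AXL and GAS6, were both higher in resistant cells. The long noncoding RNA GAS6-AS2, which starts beside GAS6 on the opposite strand, was also higher. As background, the sequences upstream of AXL and GAS6 are shown, and promoter activity was not measured. Each is the 250 bases before the RefSeq start on the GRCh38.p14 build, written 5′ to 3′ along the gene. Capitals mark the GC box, GGGCGG or its other-strand form CCGCCC, a motif of the factors SP1 and SP3. The AXL sequence is chr19:41218973-41219222 on the plus strand, and the GAS6 sequence is chr13:113864077-113864326 on the minus strand.
AXL: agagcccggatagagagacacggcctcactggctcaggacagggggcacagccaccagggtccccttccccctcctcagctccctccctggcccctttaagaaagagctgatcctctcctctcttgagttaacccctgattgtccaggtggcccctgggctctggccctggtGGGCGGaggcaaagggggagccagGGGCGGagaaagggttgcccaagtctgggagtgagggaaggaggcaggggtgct
GAS6: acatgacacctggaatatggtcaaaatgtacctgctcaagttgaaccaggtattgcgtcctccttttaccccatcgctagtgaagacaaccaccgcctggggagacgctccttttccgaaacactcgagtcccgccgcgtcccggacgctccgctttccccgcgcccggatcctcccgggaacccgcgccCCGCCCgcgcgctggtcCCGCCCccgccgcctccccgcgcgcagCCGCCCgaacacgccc

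The AXL sequence held 2 GC boxes, which begin 78 and 54 bases before the start. The GAS6 sequence held 3, which begin 60, 43 and 16 bases before the start. By RefSeq, GAS6 and GAS6-AS2 (there named GAS6-DT) run in opposite directions from starts that have 100 bases between them, so these 3 GC boxes lie between the starts of both genes. Among 35116 RefSeq promoter sequences of the same length, 42.6% held a GC box on either strand, and the first listed promoters of TYRO3, MERTK and PROS1 held at least 1 too. The AP-1 motif TGANTCA, present in 6.57% of all promoters, and the TEAD motif GGAATG with its other-strand form CATTCC, present in 11.9%, were not found in these AXL and GAS6 windows, which says only that these letters are not there. The window before a second listed AXL start held 1 TEAD match. No searched motifs overlapped each other. These matches describe letters, and binding was not measured.

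The deposited table holds no values per library, but its mean normalized counts keep the whole reads behind them. A normalized count is the number of reads divided by the size factor of its library, which corrects for depth. Genes with a single read revealed the 6 size factors, 1.06, 1.19 and 1.37 for resistant libraries and 0.539, 1.03 and 1.08 for parental libraries. For each member, exactly 1 combination of reads per library, within the range searched, gave the deposited mean and, except for PROS1, the deposited fold change and its standard error as well. Values are listed by library from the smallest to the largest size factor, since they could not be tied to replicate numbers. Fold changes are the authors' log2 values, resistant over parental, given ± SE (standard error). The table's header does not state the direction, and resistant over parental is assumed here. The recovered libraries were assigned to groups by the same sign, so they cannot check this assumption.

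AXL, the TAM receptor most studied in tumour cells, lies on chromosome 19 from 41219203 to 41261766 on the plus strand of GRCh38. Its normalized counts were 1118, 1107 and 1068 in resistant libraries, against 254, 280 and 289 in parental libraries. The groups did not overlap, and the lowest resistant library was far above the highest parental one. In bulk samples more cells with a transcript and more transcript per cell cannot be told apart. These values rest on 3969 reads in resistant and 739 reads in parental libraries. The means were 1097 ± 26.1 in resistant cells and 274 ± 17.9 in parental cells (SD, n = 3 each). In the authors' deposited table AXL had a log2 fold change of 1.99 ± 0.09 and an adjusted p of 7.14e-98, with a 95% interval from 1.81 to 2.17. Over all tested genes 28.2% were called at an adjusted p under 0.05, 13.3% higher and 14.8% lower, against 2 of the 5 members higher and 0 lower. Ranked on adjusted p, AXL stood at place 35 and GAS6 at place 25 of 13494 tested genes.

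TYRO3, a TAM receptor best known from the nervous system, lies on chromosome 15 from 41557675 to 41583586. It had normalized counts of 149, 150 and 150 in resistant libraries, against 137, 134 and 136 in parental libraries. The 2 groups did not overlap here either, since values within each group were very close, but the difference was small. Values this close vary less than the counting error of 74 to 206 reads per library, so their spread understates the uncertainty. In the authors' deposited table TYRO3 stood at a log2 fold change of 0.14 ± 0.15, with a 95% interval from -0.16 to 0.44, and was not called (adjusted p = 0.582). That interval excludes a difference of the size seen for AXL.

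MERTK, the receptor through which macrophages and the retinal pigment epithelium engulf cell material, lies on chromosome 2 from 111898479 to 112029561. Only 32 reads in resistant and 24 in parental libraries came from it. Its normalized counts were 9.40, 10.1 and 7.29 in resistant libraries, against 3.71, 9.67 and 11.1 in parental libraries, and the groups overlapped. In the authors' deposited table MERTK had a log2 fold change of 0.04 ± 0.61 (adjusted p = 0.974) and a 95% interval from -1.15 to 1.24, so changes of about 2-fold in either direction were not detectable at this depth.

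GAS6, the ligand with the highest affinity for AXL, showed the largest difference among the members with reads in both groups. It lies on chromosome 13 from 113820549 to 113864067 on the minus strand. Its normalized counts were 713, 659 and 645 in resistant libraries, against 35.2, 37.7 and 54.4 in parental libraries. All 3 resistant libraries exceeded all parental ones by more than 10 times. The means were 673 ± 36.2 in resistant cells and 42.5 ± 10.4 in parental cells (SD, n = 3 each), from 2427 and 117 reads. In the authors' deposited table GAS6 rose by 3.94 ± 0.17 (adjusted p = 1.59e-120), a 15.4-fold difference with a 95% interval from 12.2 to 19.3. Among 1262 called rises with a mean normalized count of at least 50, GAS6 was number 16 and AXL number 78 by size.

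GAS6-AS2, the noncoding RNA that starts beside GAS6, had normalized counts of 34.8, 39.6 and 43.7 in resistant libraries, against 3.71, 0.967 and 4.61 in parental libraries. The groups did not overlap, and only 8 reads stand behind the parental values. The authors' deposited table gave GAS6-AS2 a log2 fold change of 3.71 ± 0.61 (adjusted p = 1.28e-08). Per 100 reads of GAS6 there were 5.89 ± 0.958 reads of GAS6-AS2 in resistant libraries and 7.19 ± 4.13 in parental libraries (SD, n = 3 each). This ratio overlapped between the groups, and an exact two-sided permutation test gave p = 0.6. GAS6-AS1, an antisense gene that overlaps the 3′ end of GAS6, had no read in any library by the authors' deposited table. The sources used here do not say whether counting used strand, so reads in that overlap cannot be assigned to a strand.

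PROS1, the gene of the ligand protein S, which is also a cofactor of activated protein C in the control of clotting, lies on chromosome 3 from 93873033 to 93980003. It had 2, 5 and 2 reads in resistant libraries, against 0 in each parental library. The test in the authors' deposited table did not pass (adjusted p = 0.135), and with 9 reads in all the fitted fold of PROS1 depends on the fit and is not given. Few reads do not show that a gene is silent here: RPL10, a ribosomal protein gene that nearly all cells use, averaged only 0.571 normalized counts in the authors' deposited table.

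**Figure D1:**
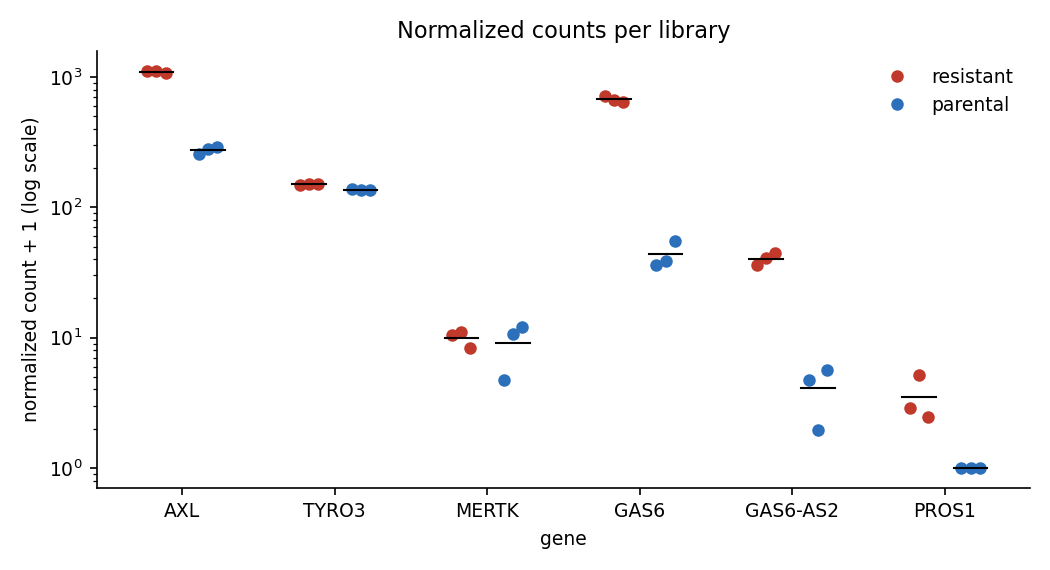
Normalized counts (plus 1, log scale) of the 5 members and GAS6-AS2 in each library, with resistant libraries in red left of parental ones in blue and black lines at group means. AXL, GAS6 and GAS6-AS2 separate widely, and MERTK overlaps. TYRO3 had 149 ± 0.858 in resistant and 136 ± 1.40 in parental libraries (mean ± SD, n = 3 each). It was not called, with a log2 fold change of 0.14 ± 0.15 (SE) in the authors' deposited table.

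The order of the members by level differed between the groups. In resistant libraries it ran from AXL through GAS6, TYRO3 and MERTK to PROS1, and in parental libraries from AXL through TYRO3, GAS6 and MERTK to PROS1. No neighbours in either order overlapped across the 3 libraries of a group. Levels of different genes are set side by side here because 3′ end libraries give counts that do not scale with transcript length, although genes may still differ in how many reads a transcript yields. AXL lay above 93.1% of the genes with reads by its mean normalized count, GAS6 above 86.7%, TYRO3 above 73.5%, MERTK above 34.6% and PROS1 above 18.7%.

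Ratios between members within a library do not depend on any size factor, so they show the same comparison without normalization. AXL had 7.53, 7.39 and 7.11 reads per TYRO3 read in resistant libraries, against 1.85, 2.08 and 2.13 in parental libraries. GAS6 had 4.80, 4.40 and 4.30 reads per TYRO3 read in resistant libraries, against 0.257, 0.281 and 0.401 in parental libraries. Both ratios separated the groups, so AXL and GAS6 differed relative to TYRO3 as well as relative to the size factors. The ligand also differed more than its receptor: GAS6 reads per AXL read averaged 0.613 ± 0.0227 in resistant and 0.154 ± 0.0299 in parental libraries (SD, n = 3 each), a ratio of 3.98. Of the reads of the 3 receptors, AXL held 87.4 ± 0.235% in resistant and 65.5 ± 1.07% in parental libraries (SD, n = 3 each). The widest 95% binomial (Clopper-Pearson) interval of that share, in the shallowest parental library, ran from 57.5% to 70.7% and covers counting error only. Each of these 4 ratios gave an exact two-sided permutation p of 0.1, the smallest that 3 libraries against 3 allow.

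**Figure D2:**
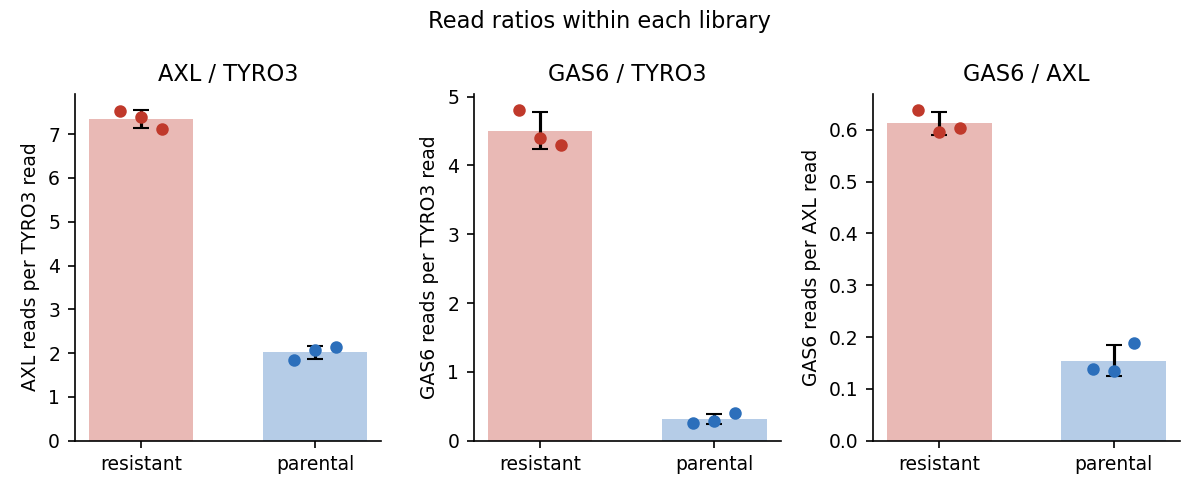
Reads of one member per read of another within each library, as points, with bars for the mean and error bars for the SD (n = 3 each), resistant left of parental. All 3 ratios are higher in resistant libraries, with 7.34 against 2.02 AXL reads per TYRO3 read, 4.50 against 0.313 GAS6 reads per TYRO3 read and 0.613 against 0.154 GAS6 reads per AXL read.

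The chromosomal neighbours of each member were taken in gene order among tested genes with a position by symbol. GAS6-AS2, which starts beside GAS6, has none under that symbol in GENCODE and is not among them, and it stood at 3.71 ± 0.61 in the authors' deposited table. The 40 tested genes nearest to AXL, 20 on each side, had a median log2 fold change of 0.01 in the authors' deposited table, and 6 of them were called higher and 8 lower. The nearest ones, the cytochrome gene CYP2S1 and HNRNPUL1, stood at -1.02 and -0.18 there. For GAS6, which lies near the end of its chromosome, 24 neighbours had a median of 0.23, with 7 called higher and 4 lower. The nearest of these on either side, TFDP1 and the RAS GTPase-activating gene RASA3, stood at -0.04 and 1.28. LAMP1 (0.56), GRTP1 (0.91), DCUN1D2 (0.78), TMCO3 (0.83), RASA3 and CDC16 (0.28), all close to GAS6, were called higher. Other genes close to GAS6, ADPRHL1 (0.60), TFDP1, UPF3A (0.50) and CHAMP1 (0.23), were not called. The called falls, at IRS2, RAB20, MCF2L-AS1 and ATP11A, lay further away, as did ANKRD10 (0.49), which was called higher. MERTK lies among lower genes: 34 of its 40 neighbours were below 0, with a median of -0.51, 15 called lower and 0 higher. MERTK itself stood at 0.04 ± 0.61 (SE). It lay 0.56 above that median, less than its SE, so it was not separated from the median of its neighbours. Around TYRO3 the median was 0.09, with 2 called higher and 3 lower. Around PROS1 it was 0.07, with 8 called higher and 1 lower, and the largest fold there was 4.71 at FILIP1L. DNA copy number was not measured.

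**Figure D3:**
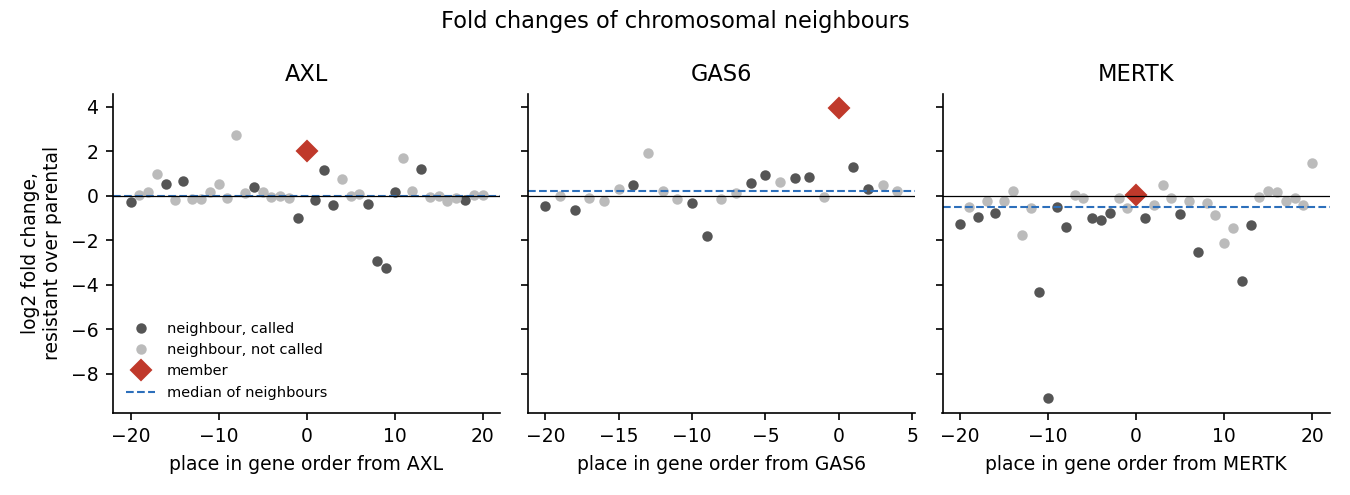
Log2 fold changes (resistant over parental) of tested genes by their place in gene order around AXL, GAS6 and MERTK, dark where called, with the member as a red diamond and the median of its neighbours as a dashed line. GAS6-AS2 is not plotted. AXL at 1.99 and GAS6 at 3.94 stand above neighbour medians of 0.01 and 0.23. MERTK at 0.04 ± 0.61 (SE) is not separated from its neighbour median of -0.51. Several of the genes closest to GAS6 are called higher, and others are not called.

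The genes around the pathway were examined in 8 lists of 103 genes, of which 80 had an adjusted p. By the calls of the authors' deposited table, 16 of these were higher and another 16 lower, 20% each, against 13.3% and 14.8% of all tested genes. These counts fell to 6 higher and 6 lower with a 2-fold minimum. They fell to 5 and 6 when the Wald statistic was referred to a t distribution with 4 degrees of freedom. Most of the pathway calls given here are therefore lost under either setting. Calls over all tested genes fell too, from 28.2% to 10.2% with the 2-fold minimum and to 6.68% with the t reference. The median log2 fold change of the tested pathway genes was 0.02, and that of all tested genes was 0.02. Counts for single lists, given below, are small and are to be read against the shares of 13.3% and 14.8%.

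The genes that prepare the ligands were examined next. Of 7 tested genes of the vitamin K cycle and of propeptide cleavage, 2 were higher and 0 lower, with a median of 0.14. By the authors' deposited table VKORC1, which recycles vitamin K for the carboxylation of Gla domains, rose by 0.40 ± 0.10 (adjusted p = 0.000319), and the propeptide protease gene FURIN by 0.43 ± 0.09 (adjusted p = 1.5e-05). The Gla carboxylase gene GGCX had a mean normalized count of only 2.61 there and did not pass (adjusted p = 0.59), with a 95% interval from -1.22 to 3.27.

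Of 12 other genes of Gla-domain proteins, 5 were tested, 2 of them higher and 1 lower, with a median of 0.28. PROC, the gene of protein C, the protease that protein S serves as a cofactor, had normalized counts of 71.4, 63.1 and 59.8 in resistant libraries, against 7.42, 6.77 and 6.45 in parental libraries. PROC rose by 3.25 ± 0.42 in the authors' deposited table (adjusted p = 2.82e-13). By the authors' deposited table PRRG1, a transmembrane Gla protein gene, rose by 0.97 ± 0.30. MGP, the matrix Gla protein gene, fell by 2.51 ± 0.89 by the authors' deposited table, with 6 reads in resistant and 26 in parental libraries.

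Of 15 genes outside the TAM family that are linked to the uptake of apoptotic cells, 8 were tested, 3 of them higher and 0 lower. The median was 1.35, or 0.99 with low groups set to a mean count of 1. MFGE8, a bridging protein that binds phosphatidylserine and integrins as GAS6 binds TAM receptors, had normalized counts of 86.5, 79.1 and 76.5 in resistant libraries, against 24.1, 20.3 and 12.9 in parental libraries. MFGE8 rose by 2.14 ± 0.30 in the authors' deposited table (adjusted p = 2.43e-11). ITGAV, the integrin alpha chain to which MFGE8 binds, rose by 1.65 ± 0.34, and the endocytic receptor gene LRP1 by 1.70 ± 0.18, in the authors' deposited table. LRP1 had normalized counts of 199, 187 and 181 in resistant libraries, against 50.1, 63.8 and 57.2 in parental libraries. ITGB5, a beta chain that pairs with ITGAV, did not pass at 0.23 (adjusted p = 0.718). Genes that expose phosphatidylserine were mostly not called: of 7 tested, 0 were higher and 1 lower, with a median of -0.05. The lower one was the flippase gene ATP11A, which fell by 0.34 ± 0.12 in the authors' deposited table, while the scramblase genes XKR8 and ANO6 did not pass at -0.13 and 0.16.

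Among 13 tested genes of receptor shedding and ubiquitination, 2 were higher and 5 lower, with a median of -0.07. ADAM17, a protease that can release the outer part of AXL and MERTK from the cell, had normalized counts of 125, 131 and 130 in resistant libraries, against 312, 230 and 266 in parental libraries. ADAM17 fell by 1.05 ± 0.15 in the authors' deposited table (adjusted p = 1.16e-11). ADAM10, the other such protease, did not pass at -0.12 (adjusted p = 0.711). TIMP3, an inhibitor of ADAM17, fell by 2.19 ± 0.10, and PSEN2 of the gamma-secretase complex by 0.67 ± 0.13, while its subunit gene PSENEN rose by 0.68 ± 0.09, in the authors' deposited table. TIMP1 and the ubiquitin ligase gene CBL were also lower, by the authors' deposited table at -0.54 and -0.50, whereas the related ligase gene CBLB rose there by 1.47 ± 0.26.

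Among 24 tested adaptors and effectors 4 were higher and 4 lower, against 13.3% and 14.8% of all tested genes. Their median was -0.17. PLCG1 (0.74 ± 0.19), SRC (0.65 ± 0.20) and AKT2 (0.53 ± 0.16) led the rises, and PIK3R3 (-1.10 ± 0.15), SOCS3 (-0.75 ± 0.22) and SHC1 (-0.43 ± 0.09) the falls, in the authors' deposited table. GRB2, an adaptor that binds active AXL, did not pass at -0.25 (adjusted p = 0.0531). Of 11 tested genes of factors that are known to act on the AXL promoter, 2 were higher and 4 lower, with a median of -0.21. YAP1 (-1.02 ± 0.24), WWTR1 (-0.73 ± 0.16) and the AP-1 gene FOSL1 (-0.66 ± 0.09) fell, while TEAD2 (0.87 ± 0.17) and TEAD3 (0.67 ± 0.15), partners of YAP1, rose in the authors' deposited table. Of the other YAP1 partners TEAD4 fell by 0.54 ± 0.14, and TEAD1 did not pass at -0.21, in the authors' deposited table. SP1 and SP3, whose motif is marked in the AXL and GAS6 sequences, did not pass at -0.03 and 0.38.

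Among receptor kinases known to pair with AXL on the cell surface, 5 were tested. EGFR, the target of dacomitinib, fell by 1.28 ± 0.16 in the authors' deposited table, with means of 88.5 ± 6.46 in resistant and 217 ± 23.1 in parental libraries (SD, n = 3 each). PDGFRB rose by 8.17 ± 0.60, and MET, ERBB2 and ERBB3 did not pass at 0.13, 0.29 and 0.34, in the authors' deposited table. The fitted mean of PDGFRB was 651 in resistant and only 2.27 in parental cells, so the size of its fold rests on few parental reads.

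**Figure D4:**
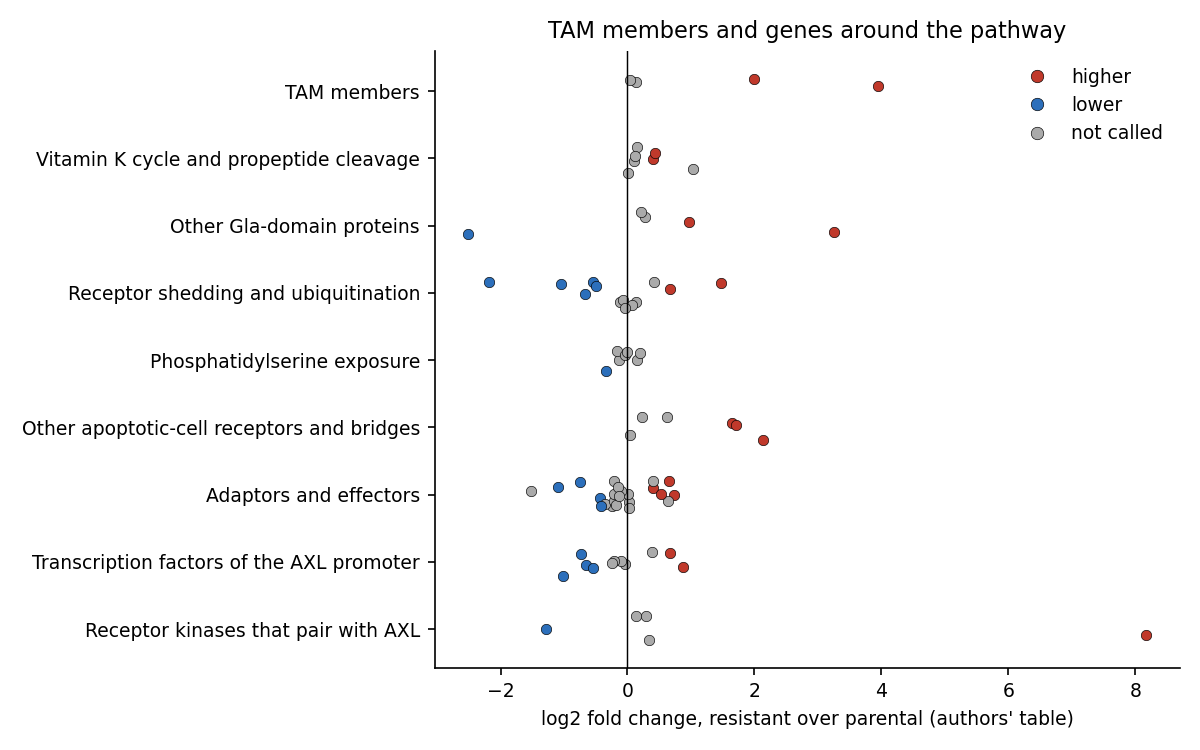
Log2 fold changes (resistant over parental, authors' deposited table) of the members and of the 8 surrounding lists, one point per tested gene with a fitted mean count of at least 1 in both groups (81 of 85), red where called higher, blue where called lower and grey where not called. Called rises and called falls are equal in number over the 8 lists, at 16 each.

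Macrophages, endothelial cells and fibroblasts also express TAM genes, so their markers were examined in the same libraries. Of 8 markers of a lung epithelial line 7 were tested, and 2 were higher, 2 lower and 3 not called in the authors' deposited table. Over all tested genes 13.3% were higher and 14.8% lower. EPCAM (0.31 ± 0.05) and KRT7 (0.68 ± 0.06) rose and KRT8 (-0.65 ± 0.07) and KRT18 (-0.61 ± 0.07) fell, in the authors' deposited table, with mean normalized counts of 6334 for EPCAM and 22535 for KRT7. The lung markers NKX2-1 and NAPSA had mean normalized counts of 0 and 2.12 there. Of 8 macrophage markers, PTPRC, CD163 and TYROBP were at 0, and the summed normalized counts ranged from 13.9 to 17.9 in resistant libraries and from 0 to 4.61 in parental libraries. ITGAM and CSF1R made up most of the difference, with 31 and 18 reads in resistant and 1 read each in parental libraries. The reads of ITGAM and CSF1R rest on the only solution of the mean, and the deposited fold was not matched. Of 8 fibroblast markers, COL1A2, DCN, LUM and THY1 were at 0, and the sum ranged from 118 to 120 in resistant libraries and from 455 to 490 in parental libraries, most of it FBLN1. Without FBLN1 it ranged from 23.3 to 28.6 in resistant and from 0.922 to 1.93 in parental libraries, almost all COL1A1. Of 5 endothelial markers, VWF, KDR and TEK were at 0, and the sum ranged from 12.2 to 16.8 in resistant and from 32.3 to 40.8 in parental libraries. In the authors' deposited table ITGAM (adjusted p = 0.00709) and COL1A1 (adjusted p = 5.51e-06) were called higher. CDH5 (adjusted p = 0.00693) and FBLN1 (adjusted p = 5.64e-71) were called lower there, and CD14, CSF1R and PECAM1 were not called. The part of these marker levels in the AXL and GAS6 results was not tested.

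The genes most like each called member were sought by the distance over log2 fold change and log2 mean normalized count, among 10129 tested genes with a mean of at least 10. Nearest to AXL were the histone gene HIST1H2BK (1.90 ± 0.10, distance 0.11), CD24 (2.14 ± 0.10, distance 0.17) and CYR61 (2.17 ± 0.10, distance 0.20), by the authors' deposited table. Near to GAS6 were the intermediate filament gene VIM (3.57 ± 0.15, distance 0.37) and MCAM (4.55 ± 0.16, distance 0.77), by the authors' deposited table. The likeness rests on a single comparison of 6 libraries and says nothing of shared control.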

How the data were processed

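Polyadenylated RNA of 6 PC9 samples was sequenced from 3′ ends by a bulk form of MARS-seq, per the labels' protocols. The tools named in the submitters' processing notes are cutadapt, STAR, HTSeq and DESeq2, on GRCh38 (hg38). Their versions, strand use and any collapse of molecular barcodes are not given in the sources used here. The authors' deposited table gives, per the file headers, the signal of each gene as its mean normalized count over libraries, a log2 fold change with its standard error, a Wald score, a p-value and an adjusted p-value. It was used as deposited, and recomputing the Benjamini-Hochberg adjustment over 13494 genes gave the deposited values within 1.6e-15. Calls are those of the authors' two-sided Wald test (DESeq2) at an adjusted p under 0.05. The planned count test needs values per library and was not run.

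Reads per library were recovered with Python 3.11.15 and numba 0.67.0, a step chosen after seeing the data. A mean is the sum of whole reads weighted by the inverse of the size factor times the number of libraries, 6, and the 6 weights were read from genes with 1 read. All 2685 genes with a mean above 0 and under 1 were whole-read combinations within 1e-10. Solutions of a member's mean within 3e-12 were searched over a range around the deposited fold, and kept where a negative binomial group fit with the deposited standard error returned the deposited fold within 1e-05. For AXL 97 solutions of the mean were found, of which 1 matched, the next best missing the fold by 0.000621. PROS1, with no parental read, rests on the only solution of its mean. Among the markers, ITGAM, CSF1R, AIF1, CD53, PECAM1, COL3A1 and FAP likewise rest on the only solution, and their deposited fold was not matched. On simulated data 24 of 24 genes were recovered, with 0 wrong. The simulated means all lay below that of AXL, and no simulated group was without reads, so the cases of AXL and PROS1 were not covered. Libraries could not be tied to replicate numbers. The group of a library is the side of 0 on which its single-read genes fall, under the reading that the fold is resistant over parental.

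Positions are from GENCODE 29, for 93.7% of tested genes by symbol, and promoters and the GAS6-AS2 start from RefSeq (GRCh38.p14), where all 5 members matched. Members and lists were chosen with earlier results of these data known. Named pathway genes are up to 3 called rises and 3 called falls per list. Others were added after their values were seen. For lists, a group with a fitted mean under 1 was also set to 1. A gene that the rule on likeness takes is not reported here.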

Additional observations from a re-analysis of the deposited data

How the results depend on the processing

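AXL and GAS6 were the members called, and TYRO3, MERTK and PROS1 were not, under all 6 alternatives that could be applied to each: an adjusted p threshold of 0.01, a 2-fold minimum, centring on the median fold of -0.03, adjustment over all genes with a p, a mean count of at least 10 (which leaves out MERTK and PROS1) and a t reference with 4 degrees of freedom. The adjusted p of AXL ranged from 8.64e-101 to 0.0111 and that of GAS6 from 2.31e-122 to 0.0103, both highest with the t reference. Those of TYRO3 ranged from 0.481 to 0.67, of MERTK from 0.953 to 0.978 and of PROS1 from 0.13 to 0.338. The 16 higher and 16 lower pathway genes became 6 and 6 with a 2-fold minimum, under which 1382 of all genes were called. They became 5 and 6 with the t reference, under which only 902 of all genes were called. Other alternatives stayed within 1.5 times. Relative to neighbouring genes AXL stood at 1.98 and GAS6 at 3.71. Leaving out each recovered library in turn, chosen after seeing the data, gave log2 ratios of mean normalized counts from 1.95 to 2.04 for AXL, 3.87 to 4.20 for GAS6, 0.13 to 0.15 for TYRO3 and -0.22 to 0.42 for MERTK, with no test. MERTK and PROS1 are limited by depth, with 56 and 9 reads in all. No paired analysis was possible because the deposited table holds no values by replicate number.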
